A study of Mus musculus with 9 samples.

Results

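The 7 genes of progesterone synthesis Star, Cyp11a1, Fdx1, Fdxr, Hsd3b1, Por and Akr1c18 were followed for binding of the glucocorticoid receptor (GR) in mouse granulosa cells. They were taken as a list by name out of 21887 protein-coding genes. Each gene was given a window, its span in build mm10 with 50 kb to each side, and every GR peak and every peak of acetylated lysine 27 of histone H3 (H3K27ac) in that window was collected. The 7 windows did not overlap each other and held 60 GR loci of 18584 in the whole data set, where a locus is a set of peaks of the 4 GR lists that overlap by 1 bp or more.

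The GR libraries came from wild-type CBA x C57BL/6 F1 mice, 21 days old, that had received 5 IU of eCG (PMSG in the labels), which makes follicles grow. Granulosa cells were released by puncturing the ovaries, and chromatin was precipitated with an antibody to GR or to H3K27ac. In 2 libraries (6 h) the mice had then been given 5 IU of hCG, which acts like luteinising hormone (LH) at its surge, 44 h after eCG and were killed 6 h later. In the other 2 libraries (0 h) they were killed 44 h after eCG without hCG, as were the mice of the single H3K27ac library. The 6 h mice also had a longer time since eCG, and the effects of hCG and of that time cannot be told apart. Another 4 samples of the series, pooled inputs and GR libraries labelled PRWT and PRKO, were not analysed here. The labels number the libraries without saying whether they came from separate animals, so the spread between them may be technical.

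On chromosomes 1 to 19, X and Y the 6 h lists counted 14746 and 10588 GR peaks, against 10116 and 9726 in the 0 h lists. Read depth is unknown, and where a list has no peak, binding there was below the calling limit of the authors or absent. Of 6 granulosa markers (Foxl2, Fshr, Inha, Amh, Cyp19a1 and Nr5a2), 6 had 1 to 18 H3K27ac peaks in the gene span, 35 in sum. Of 14 markers of theca, leukocyte, endothelial and oocyte cells, 8 had none, among them Insl3, Ptprc, Tek and Zp3. The acetylated theca markers were Cyp17a1 and Ptch1 (7 peaks in sum), the leukocyte marker Itgam (1 peak), the endothelial markers Pecam1 and Cdh5 (4 peaks) and the oocyte marker Gdf9 (2 peaks), and the part of such cells in the results was not tested.

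Progesterone is made from cholesterol in a short chain of steps. The protein of Star carries cholesterol into the mitochondrion, and the P450 enzyme of Cyp11a1 cuts its side chain there with electrons passed on by ferredoxin reductase (Fdxr) and ferredoxin (Fdx1). The enzyme of Hsd3b1 turns the product, pregnenolone, into progesterone. Por encodes the reductase that feeds electrons to the P450 enzymes of the endoplasmic reticulum, and Akr1c18 encodes the enzyme that turns progesterone into a form with little progestin activity. Granulosa cells are known to shift towards progesterone after the LH surge as they become luteal cells.

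Start sites came from a RefSeq promoter table of GRCm38.p6 (same coordinates as mm10), and it matched 6 of the 7 genes with 7 start sites, a pair of them for Cyp11a1. GR peaks lay over 4 of these 7 start sites in 1 or more libraries, against 24.5% of all 32851 start sites of the table, and over 2 of them in all 4 libraries, against 9.06%. These were the start sites of Fdx1 and Fdxr (all 4 libraries), of Por (the first 6 h library and both 0 h libraries) and the inner start of Cyp11a1 (the first 6 h and the second 0 h library). The outer start of Cyp11a1, at the upstream end of the gene, had no GR peak, nor had those of Hsd3b1 and Akr1c18. H3K27ac peaks of 0 h lay over 4 of the 7 start sites (Fdx1, Fdxr, Hsd3b1 and the inner one of Cyp11a1), against 27.2% of the table, so the Por start carried GR without the mark at the start base. H3K27ac peaks lay on both sides of that base, though, and the GR locus over it overlapped the mark. The promoters below, 250 bases before to 50 after the start, are shown to set the 4 occupied starts beside the unoccupied one of Cyp11a1. Each is written 5′ to 3′ on the strand of the gene, and capitals mark the bases that lay under a GR peak in each library that called one there.
Fdx1, chr9:51963553-51963852, minus strand: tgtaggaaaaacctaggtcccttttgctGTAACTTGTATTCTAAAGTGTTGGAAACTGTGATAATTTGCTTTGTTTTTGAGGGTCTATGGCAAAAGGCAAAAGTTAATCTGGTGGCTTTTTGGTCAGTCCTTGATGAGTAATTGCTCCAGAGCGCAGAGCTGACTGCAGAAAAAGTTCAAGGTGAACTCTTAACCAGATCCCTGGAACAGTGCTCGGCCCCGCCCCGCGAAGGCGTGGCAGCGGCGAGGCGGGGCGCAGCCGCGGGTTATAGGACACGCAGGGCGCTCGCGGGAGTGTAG
Fdxr, chr11:115276920-115277219, minus strand: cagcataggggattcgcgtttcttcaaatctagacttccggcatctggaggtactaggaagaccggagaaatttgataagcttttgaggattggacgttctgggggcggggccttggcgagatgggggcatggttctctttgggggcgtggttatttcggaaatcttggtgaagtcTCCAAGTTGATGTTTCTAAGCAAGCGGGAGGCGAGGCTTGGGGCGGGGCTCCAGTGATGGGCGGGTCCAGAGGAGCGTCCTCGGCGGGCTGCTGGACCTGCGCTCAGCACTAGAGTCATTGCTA
Por, chr5:135688895-135689194, plus strand: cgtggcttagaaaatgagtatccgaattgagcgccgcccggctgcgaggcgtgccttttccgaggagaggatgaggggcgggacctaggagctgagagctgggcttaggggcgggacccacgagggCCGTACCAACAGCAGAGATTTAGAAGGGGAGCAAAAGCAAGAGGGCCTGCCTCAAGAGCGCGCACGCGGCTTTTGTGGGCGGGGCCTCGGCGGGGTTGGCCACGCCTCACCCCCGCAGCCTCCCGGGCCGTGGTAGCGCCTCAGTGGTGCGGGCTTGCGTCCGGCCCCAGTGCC
Cyp11a1 inner start, chr9:58014702-58015001, plus strand: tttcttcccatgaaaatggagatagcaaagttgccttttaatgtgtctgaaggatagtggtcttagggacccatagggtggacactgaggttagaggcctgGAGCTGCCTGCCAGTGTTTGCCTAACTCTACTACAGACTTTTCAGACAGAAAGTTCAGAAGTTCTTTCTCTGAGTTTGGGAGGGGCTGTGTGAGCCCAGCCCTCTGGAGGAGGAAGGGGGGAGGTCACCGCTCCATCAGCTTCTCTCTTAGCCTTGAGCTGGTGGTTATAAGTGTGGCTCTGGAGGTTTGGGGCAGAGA
Cyp11a1 outer start, chr9:57997774-57998073, plus strand: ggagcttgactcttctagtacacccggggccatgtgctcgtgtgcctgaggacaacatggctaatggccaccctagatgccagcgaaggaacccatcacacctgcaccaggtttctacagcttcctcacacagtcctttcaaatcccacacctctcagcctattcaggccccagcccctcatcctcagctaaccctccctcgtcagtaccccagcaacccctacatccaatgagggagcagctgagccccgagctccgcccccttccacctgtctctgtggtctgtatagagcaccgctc

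The occupied starts were taken because a GR peak lay over them, so the nearness of the summits to the starts follows from that choice. With the first transcribed base at 0, the Fdx1 summits lay at 54 and 70 bp in the 6 h libraries, against 56 and 75 bp in the 0 h libraries. Those of Fdxr lay at 76 and 73 bp at 6 h and at 66 and 59 bp at 0 h. The Por summit lay at 67 bp in the first 6 h library, against 62 and 85 bp at 0 h. At the inner start of Cyp11a1 the summit lay at -27 bp in the first 6 h library and at -8 bp in the second 0 h library. Within each gene these summits lay close together, whatever the time. Where a library had several peaks in a locus, the summit nearest to that of the strongest peak was taken, which favours such closeness. At Fdxr this left out the highest peak of the first 6 h library, with its summit at -482 bp. None of the 7 promoters held the full GR motif (AGAACA and its reverse complement, with a gap of 3 bases), its single arm AGAACA, the NR5A motifs AAGGTCA and CAAGGTCA, or TGACGTCA or TGACTCA, on either strand. The arm occurs in every full motif, and CAAGGTCA holds AAGGTCA. Among all 32851 promoters of the table, 0.00913% held the full motif, 18.97% the arm, 4.72% AAGGTCA, 1.56% CAAGGTCA, 1.79% TGACGTCA and 5.20% TGACTCA. The G and C content was 67.3% for Por, 56.3% for Fdxr, 52.0% for Fdx1 and 51.0% for the inner Cyp11a1 start, and for starts without a GR peak it was 58.3% (outer Cyp11a1), 42.3% (Akr1c18) and 38.7% (Hsd3b1), with a median of 52.7% over the table.

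Peaks in the 7 windows numbered 53 and 32 in the 6 h libraries, against 18 and 26 in the 0 h libraries (means 42.5 ± 14.8 and 22.0 ± 5.66, SD, n = 2 each). Both 6 h values stood above both 0 h values, yet 2 against 2 libraries cannot pass an exact permutation test (two-sided p = 0.333, the smallest possible). The difference of 20.5 peaks was 10 with the first 6 h library left out and 31 with the second left out. It was 7.5 with lists of equal length. Without the Fdx1 window the libraries held 34 and 22 peaks at 6 h and 13 and 22 at 0 h, so the times then overlapped (difference 10.5, exact permutation p = 0.667). Per 1000 peaks of each list the windows held 3.59 and 3.02 peaks at 6 h and 1.78 and 2.67 at 0 h. Gene by gene, both 6 h libraries had more peaks than both 0 h libraries at 4 of the 7 genes (Star, Cyp11a1, Fdx1 and Fdxr), against 10.9% of all protein-coding genes. With lists cut to the 9726 strongest peaks of each library, 3 genes did so (Star, Cyp11a1 and Fdxr), against 6.81%. None of the 7 had fewer peaks in both 6 h libraries than in both 0 h libraries, against 3.66% of all genes, or 11.8% with the cut lists. These shares of all genes are not matched for locus number, with a median of 7 loci in the 7 windows, against 2 over all genes.

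**Figure D1:**
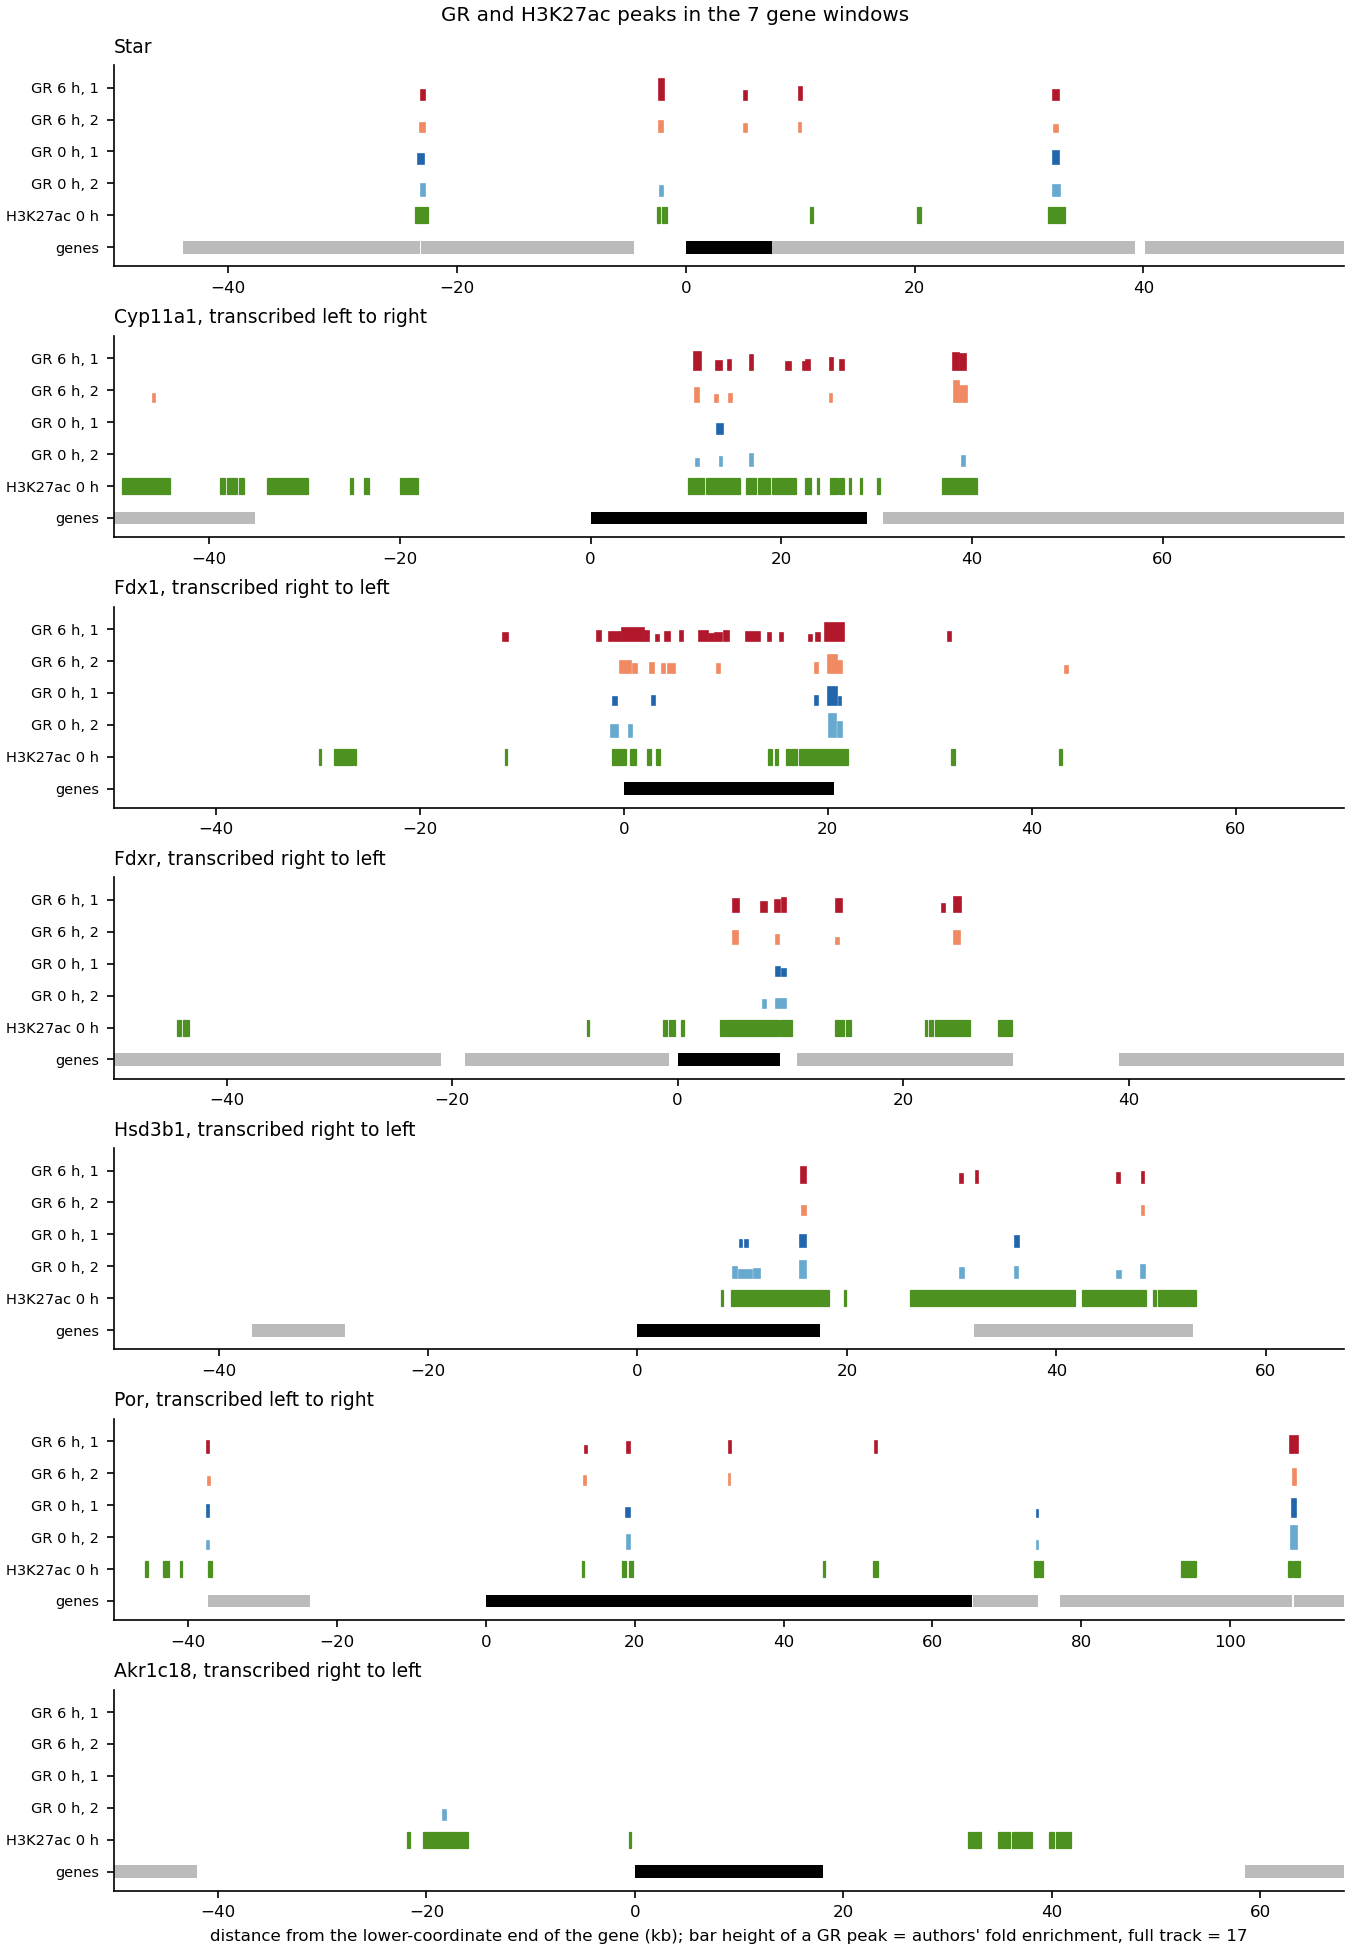
GR peaks of the 4 libraries and H3K27ac peaks of 0 h in the 7 windows, with the distance from the lower-coordinate end of the gene in kb on the x axis. The height of a GR bar is the authors' fold enrichment, H3K27ac bars show position only, the named gene is black and its neighbours are grey. Peaks cover 45.7% and 18.4% of the Fdx1 gene in the first and second 6 h library, against 5.10% and 3.94% at 0 h. The Akr1c18 window holds 1 GR peak.

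**Figure D2:**
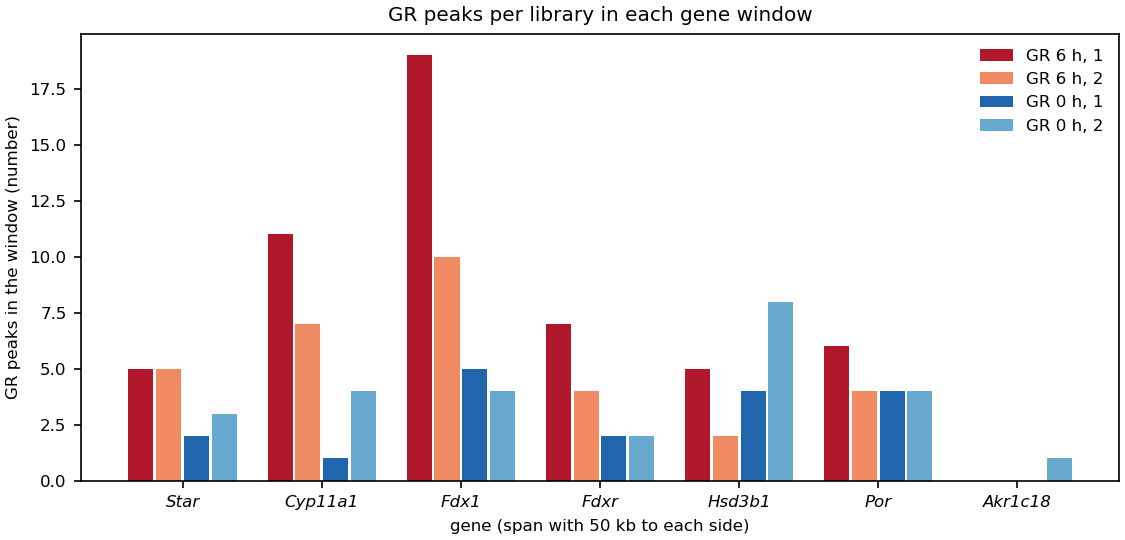
Number of GR peaks per library (y axis) in the window of each gene (x axis), with the 6 h libraries in red and the 0 h libraries in blue. Fdx1 has 19 and 10 peaks at 6 h and 5 and 4 at 0 h, while the times overlap at Hsd3b1, Por and Akr1c18.

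A locus was called only at 6 h if both 6 h libraries and neither 0 h library had a peak in it, and only at 0 h in the reverse case. Of the 60 loci, 12 (20%) were only at 6 h, against 15.1% of all loci. Another 3 (5%) were only at 0 h, against 4.15%, and 9 (15%) were in all 4 libraries, against 27%. The remaining 36 were called in other sets of libraries, 20 of them by the first 6 h library alone (33.3%, against 15.7% of all loci), and 13 of those 20 lay in the Fdx1 window. A locus only at 6 h lay in the window of 5 of the 7 genes, against 16.5% of all protein-coding genes and 23.3% of the genes with an H3K27ac peak in their span. The same 5 genes (Star, Cyp11a1, Fdx1, Fdxr and Por) had such a locus in the gene span itself, against 5.53% of all genes and 9.37% of the acetylated ones. The 7 windows held a median of 7 loci of any kind, against 2 over all genes, and these shares are not matched for locus number. With lists of equal length the 12 loci only at 6 h fell to 7, and 3 genes (Cyp11a1, Fdxr and Por) had one in the span, against 4.24% of all genes. Loci only at 0 h lay near 2 genes (Hsd3b1 and Por, against 6.78% of all and 10.2% of acetylated genes), and in the span of 1, Hsd3b1 (against 2.21% and 3.97%). Loci in all 4 libraries lay near 6 genes (all but Akr1c18, against 45.5% and 66.3%) and in the span of 4, Cyp11a1, Fdx1, Fdxr and Hsd3b1 (against 22.0% and 40.6%). The 12 loci only at 6 h became 32 without the second 6 h library, and the 3 only at 0 h became 5 when the first 6 h library was left out and 6 when the first 0 h library was. With a library left out a class asks less, so such counts could hardly fall.

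Star (chr8:25808474-25815982), the gene of the cholesterol carrier, had 5 and 5 peaks in its window at 6 h, against 2 and 3 at 0 h. It had 2 loci only at 6 h. One lay inside the gene (chr8:25813566-25813795), with a fold enrichment of 6.35 in the first 6 h library and 5.62 in the second, where fold enrichment is the authors' ratio of a peak to the background estimated by the peak caller. These values were higher than or equal to those of 23.4% and 23.0% of the peaks of their own lists. The locus was lost when the lists were cut to equal length. The other lay 2365 bp above the upper end of the gene, inside Ash2l (chr8:25818347-25818639), with 8.76 and 5.81. With a −log10 p-value of 15 or more required, Star had no locus only at 6 h. The strongest locus of the window lay 1930 bp below the lower end of the gene and in no gene (chr8:25806121-25806544). It had 14.4 and 7.42 at 6 h, against 6.47 in the second 0 h library and no peak in the first. In its own list the first of these values stood at the 92.4th percentile, the second at the 59.3rd and the 0 h value at the 27.4th. Values of different lists are set side by side only as a description, since each list has its own background. The 2 loci in all 4 libraries lay 22818 bp below Star, at the neighbours Bag4 and Lsm1, and 24560 bp above it, inside Ash2l. The lower one (chr8:25785060-25785656) had 7.11 and 5.73 at 6 h, against 6.47 and 7.76 at 0 h. The upper one (chr8:25840542-25841209) had 6.80 and 4.44 at 6 h and 8.50 and 7.47 at 0 h, so there both 0 h values were the higher ones.

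Cyp11a1 (chr9:57998024-58027031), which encodes the side-chain cleavage enzyme, had 11 and 7 peaks at 6 h, against 1 and 4 at 0 h. Its 12 loci all lay in H3K27ac peaks, and 9 of them overlapped the gene. The strongest locus inside the gene (chr9:58008930-58009636) had fold enrichments of 13.1 and 9.79 at 6 h, against 5.29 in the second 0 h library and none in the first. In their lists these values stood at the 89.2nd, 82.2nd and 8.43rd percentile. This locus lay upstream of the inner start, with summits at -5715 and -5701 bp from it at 6 h and at -5700 bp at 0 h. Above that locus lay the gene's only locus in all 4 libraries (chr9:58011041-58011875), with 6.95 and 5.51 at 6 h and 7.53 and 6.54 at 0 h. The summits there lay up to 535 bp apart, and with 200 bp around each summit taken in place of the peak it was not in all 4 libraries. Loci only at 6 h followed at chr9:58012485-58012847 (7.15 and 5.57) and chr9:58023181-58023494 (8.65 and 6.10). The first of these also lay upstream of the inner start, with summits at -2342 and -2334 bp, as did the locus in all 4 libraries. The third locus only at 6 h was the strongest of that class near any of the 7 genes. It lay 9002 bp above the upper gene end, inside the neighbour Ccdc33 (chr9:58036033-58036655), with 12.5 and 15.1, the 87.3rd and 95.4th percentile of their lists. A locus beside it (chr9:58036815-58037525) had 11.6 and 11.6 at 6 h and 7.23 in the second 0 h library. That locus starts 160 bp beyond the end of the one before, and when peaks up to 500 bp apart were joined the strongest locus was no longer only at 6 h. The 3 loci only at 6 h remained so with lists of equal length, and the one with 8.65 and 6.10 did not with a −log10 p-value of 15 or more. At the inner start the fold enrichments were 10.5 in the first 6 h library and 8.26 in the second 0 h library.

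Fdx1 (chr9:51943023-51963602), the gene of the electron donor ferredoxin, had 19 and 10 peaks at 6 h, against 5 and 4 at 0 h, in a window with no other protein-coding gene. Only 45 of the 21887 genes, Fdx1 among them, had 20 or more loci in their window, and the median gene had 2. The start site carried the strongest locus (chr9:51962751-51964587), with fold enrichments of 13.1 and 12.6 at 6 h and 12.4 and 16.0 at 0 h, between the 89.1st and the 97.3rd percentile of each list. The times overlapped there. What differed between the times was the rest of the gene. GR peaks covered 45.7% and 18.4% of the gene span at 6 h, against 5.10% and 3.94% at 0 h, and the mean fold enrichment of these peaks was 6.77 and 7.66 at 6 h and 8.30 and 12.1 at 0 h. The difference of the means, 27.5 percentage points, was reached or exceeded by 11 of the 21887 genes and by 3 of the 13962 genes of 10000 bp or more, Fdx1 included. It was 13.9 points with the first 6 h library left out, 41.2 with the second left out and 11.5 with lists of equal length, in which the covered shares were 13.7% and 18.4% at 6 h and 5.10% and 3.94% at 0 h. In those cut lists the window held 2 and 9 peaks at 6 h and 5 and 4 at 0 h, so the higher number at 6 h did not hold in the first library. Its 2 loci only at 6 h (chr9:51946761-51948051, with 6.70 and 6.68, and chr9:51951942-51952640, with 5.76 and 6.47) lay inside the gene and outside H3K27ac, and neither kept that class with lists of equal length. A locus 3414 bp wide across the lower end of the gene was called in all 4 libraries, with 9.56 and 8.36 at 6 h and 5.82 and 8.50 at 0 h, but by peaks whose summits lay up to 1368 bp apart (chr9:51941577-51944990). With lists of equal length or 200 bp around summits, a locus only at 0 h lay there. A locus near the start (chr9:51961742-51962292) had 5.7 and 7.06 at 6 h, against 6.26 in the first 0 h library and no peak in the second. Of the 20 loci, 13 were called by the first 6 h library alone, with fold enrichments between 4.04 and 7.28.

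Fdxr (chr11:115268024-115277101), which passes electrons from NADPH to ferredoxin, had 7 and 4 peaks at 6 h, against 2 and 2 at 0 h. The locus over its start site (chr11:115276702-115277622) was shared by the 4 libraries. Its peaks over the start had fold enrichments of 8.40 and 5.98 at 6 h and 6.01 and 5.93 at 0 h. The first 6 h library had a further peak in the locus, at 9.98, with its summit at -482 bp from the start. The first 0 h library also had a further peak at that place, at 4.75. The peak of the second 0 h library over the start reached across that place too. A locus only at 6 h lay in the gene (chr11:115272912-115273491), with 9.10 and 8.98, and 2 lay in the neighbour Fads6. Of these, the one 15412 bp from Fdxr (chr11:115292513-115293115) had 10.3 and 8.69, and the one 4931 bp away (chr11:115282032-115282610) had 9.20 and 4.39. The locus in the gene and the farther one kept their class with lists of equal length. All 6 loci of the window lay in H3K27ac peaks.

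Hsd3b1 (chr3:98842356-98859794), whose enzyme makes progesterone itself, was the only gene of the 7 with less of its span under GR peaks in both 6 h libraries than in both 0 h libraries, against 5.72% of all genes. The covered share was 2.46% and 2.47% at 6 h, against 6.43% and 15.9% at 0 h. The mean at 6 h minus that at 0 h came to -8.71 points (exact permutation p = 0.333, two-sided, the smallest possible), and it was -13.4 with the first 0 h library left out and -3.97 with the second left out. Peaks in the window did not separate the times, with 5 and 2 at 6 h and 4 and 8 at 0 h. A locus only at 0 h inside the gene (chr3:98852039-98853289) was weak, with 4.55 and 5.86 at the 3.73rd and 16.8th percentile of their lists, and it lost its class with lists of equal length. The other locus only at 0 h lay 18592 bp above the upper gene end, inside Hao2 (chr3:98878386-98878751), with 7.52 and 8.02, and kept its class. The strongest locus lay inside the gene, with summits 1514 and 1552 bp downstream of the start site at 6 h and 1516 and 1527 bp at 0 h (chr3:98857849-98858488). It was in all 4 libraries, with 11.2 and 6.06 at 6 h and 8.29 and 12.4 at 0 h, and the times overlapped. A locus 30674 bp above the gene, in Hao2 (chr3:98890468-98890786), had 7.47 and 6.24 at 6 h, against 9.73 in the second 0 h library alone. Hsd3b1 has close copies in the mouse genome, as has Akr1c18. The treatment of reads that match several copies is unknown, so low values at these genes are uncertain.

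Por (chr5:135670040-135735326), the reductase gene of the endoplasmic reticulum, had 6 and 4 peaks at 6 h and 4 and 4 at 0 h, and the times overlapped. Its start site was called in the first 6 h library with a fold enrichment of 8.09, not in the second, and in both 0 h libraries with 6.62 and 9.81 (chr5:135688875-135689442). Within the gene 2 loci were only at 6 h. The one at chr5:135702658-135703010 lay outside H3K27ac, with 8.47 and 7.75, and kept its class with lists of equal length. The one at chr5:135683251-135683570 was weaker, with 4.99 and 6.33, and did not. The locus only at 0 h (chr5:135744049-135744275, with 5.19 and 5.46) lay over a start site of the neighbour Tmem120a, and the 2 loci in all 4 libraries lay over start sites of neighbours. The one at Rhbdd2 (chr5:135632532-135632897) had 8.73 and 6.18 at 6 h and 8.41 and 5.97 at 0 h. The one at Mdh2 and Styxl1 (chr5:135778133-135779219) had 11.7 or more in each library, with 12.3 and 11.7 at 6 h, against 13 and 16.1 at 0 h.

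Akr1c18 (chr13:4132615-4150646), the gene of the progesterone-inactivating enzyme, had no GR peak in its span in any library. Its window held 1 locus, called by the second 0 h library alone with a fold enrichment of 6.65, and lying 18077 bp below the lower end of the gene. Of all protein-coding genes 68.8% had 1 locus or more. The window had 9 H3K27ac peaks, none of them over the gene, and 8 of the 9 had no GR peak.

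**Figure D3:**
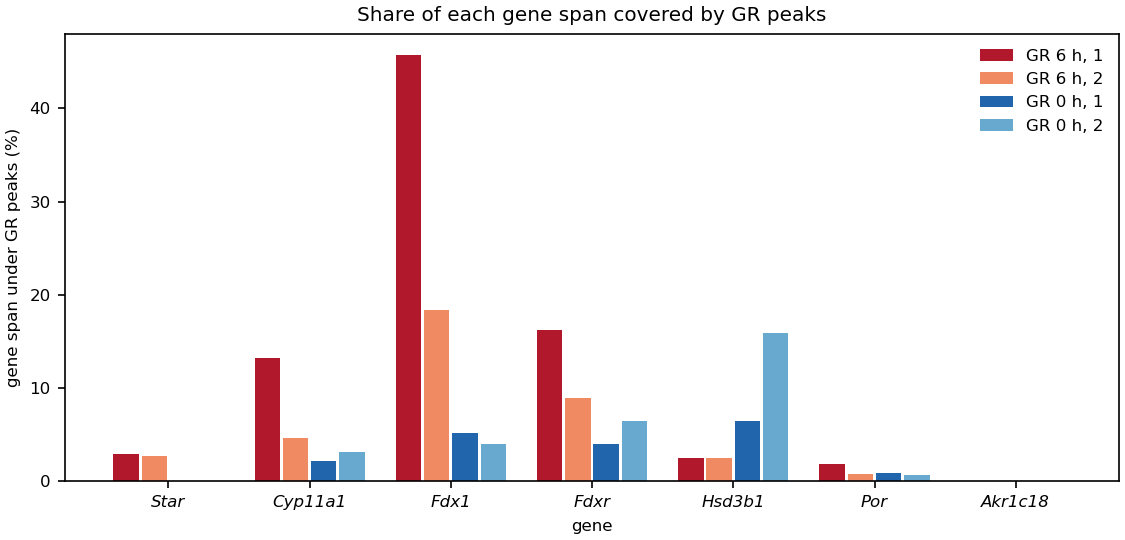
Share of each gene span under GR peaks in percent (y axis) for the 7 genes (x axis), with the 6 h libraries in red and the 0 h libraries in blue. Both 6 h libraries lie above both 0 h libraries at Star, Cyp11a1, Fdx1 and Fdxr and below them at Hsd3b1.

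The covered share of the gene span was larger in both 6 h libraries than in both 0 h libraries at 4 of the 7 genes, against 8.27% of all protein-coding genes. These were again Star, with 2.90% and 2.66% at 6 h and no cover at 0 h (no cover at either time with lists of equal length), Cyp11a1, Fdx1 and Fdxr. Cyp11a1 had 13.1% and 4.61% at 6 h, against 2.08% and 3.10% at 0 h. Fdxr had 16.2% and 8.87% at 6 h, against 4.0% and 6.48% at 0 h. The 4 genes act in the mitochondrial steps, and the gene of the next step, Hsd3b1, went the other way. Por, with 1.78% and 0.695% at 6 h and 0.870% and 0.600% at 0 h, overlapped. The difference between the mitochondrial genes and the others was not tested. The 8.27% of all genes, like the 5.72% given for Hsd3b1, is not matched for locus number. At each of the 4 genes the first 6 h library, which has the longest list, had the larger share of the 6 h pair.

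**Figure D4:**
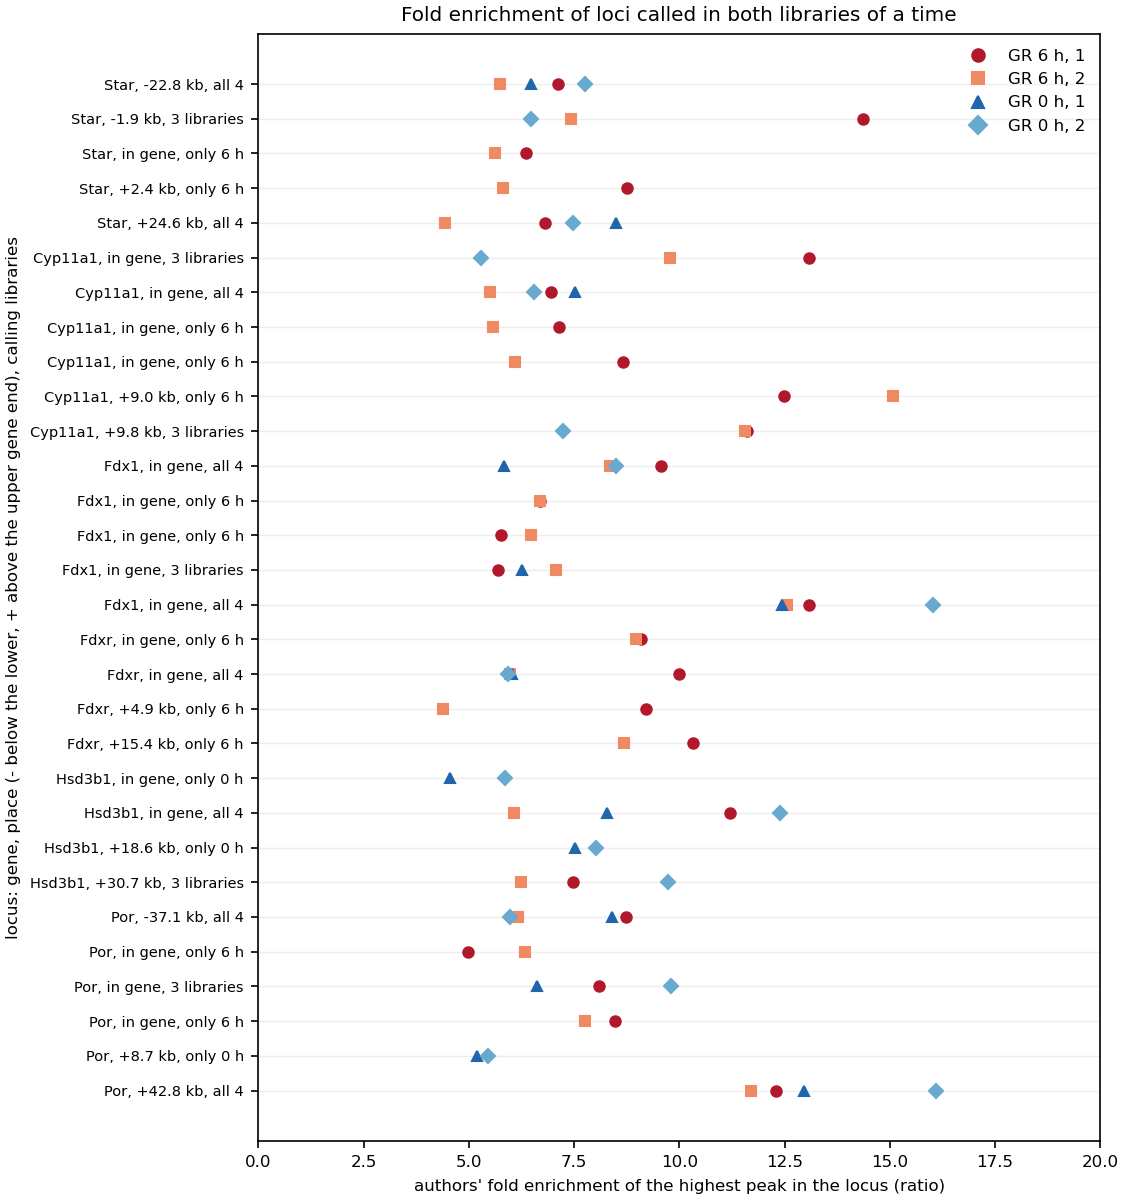
Authors' fold enrichment (x axis, ratio) of the highest peak of each library in the 30 loci called in both libraries of a time, by gene and place (y axis), with 1 symbol per library and no symbol where a library had no peak. Values run between 4.39 and 16.1, and the highest symbols belong to the Fdx1 start site, the locus above Cyp11a1 and the locus over the start sites of Mdh2 and Styxl1.

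The chromatin around most of these genes was already acetylated before hCG. Of the 60 loci, 46 (76.7%, 95% Wilson interval 64.6 to 85.6, counting error only) lay in H3K27ac peaks of 0 h, against a similar 74.4% of all loci. Within the 6 h class this held for 7 of 12 (58.3%, 32.0 to 80.7), against 39.3% of all loci of that class. These were the 3 near Cyp11a1, the 3 near Fdxr and 1 of Por, while both loci of Star, both of Fdx1 and the other of Por lay outside. All 9 loci in all 4 libraries lay inside, against 98.4%, as did all 3 only at 0 h, against 91.3%. Counted by peaks, 73.6% and 78.1% of the GR peaks in the 7 windows lay in H3K27ac at 6 h, against 94.4% and 100% at 0 h, and over all peaks of each list the shares were 77.9% and 70.7% at 6 h and 94.6% and 94.6% at 0 h. Cyp11a1 had 21 H3K27ac peaks in its window, Fdx1 had 15, Fdxr and Por had 14 each, Akr1c18 had 9, Hsd3b1 had 7 and Star had 6, and the median gene had 3. Acetylation covered 60.9% of the Fdxr gene, 50.2% of Hsd3b1, 43.8% of Cyp11a1, 31.6% of Fdx1 and 3.49% of Por, and it covered none of the Star and Akr1c18 genes. The Hsd3b1 window also held a peak of 15707 bp, wider than or equal to 99.98% of all H3K27ac peaks. H3K27ac at 6 h was not analysed here, and the 0 h map is from 1 library.

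Other genes of the pathway showed both kinds of locus. Of 21 other steroid enzymes and carriers, 2 had a locus only at 6 h in their window (against 16.5% of all genes), 5 had one only at 0 h (against 6.78%) and 14 had one in all 4 libraries (against 45.5%). The pair with 6 h loci were Scarb1, the receptor for cholesterol from high-density lipoprotein, with fold enrichments of 10.5 and 6.94, and Cyb5r3, a cytochrome b5 reductase, whose locus 6848 bp from the gene had 24.2 and 21.1. The nearest loci only at 0 h lay inside Hsd17b1 (5.31 and 6.11), Cyp19a1, the aromatase gene (5.80 and 10.4), Scarb1 (5.13 and 6.62) and Soat1, whose enzyme stores cholesterol as ester (6.39 and 5.63), and that of Hsd3b6 was the locus inside Hsd3b1. Of the 2 genes with a 6 h locus, Scarb1 thus also had one of the opposite class. Of 12 regulators, 6 had a locus only at 6 h, 6 had one only at 0 h and 9 had one in all 4 libraries. The shares over all genes were 16.5%, 6.78% and 45.5%, and over genes with an H3K27ac peak in their span 23.3%, 10.2% and 66.3%. These shares are not matched for locus number, and Nr5a2 had 46 loci and Nr4a1 had 21, against 2 for the median gene. The nearest ones only at 6 h lay inside Prlr, the prolactin receptor gene (14.2 and 11.9), Lhcgr, the LH receptor gene (12.3 and 9.74), and Nr5a2 (7.05 and 5.74), and 7404 bp from Cebpb (8.52 and 5.98). The nearest ones only at 0 h lay inside Nr5a1 (8.32 and 13.6), Gata4 (8.43 and 8.65), Lhcgr (8.08 and 6.80) and Nr5a2 (6.42 and 5.63), all of them transcription factor genes but Lhcgr.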

How the data were processed

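The series measured GR binding and H3K27ac by chromatin immunoprecipitation and sequencing. Per the submitters' processing notes the authors used Bowtie2 2.4.5, MACS2 and build mm10, and 1 list was deposited per library. Each deposited GR list gives a fold enrichment (ratio), a summit position, a −log10 p-value with a whole-number score that follows it, and a −log10 q-value. The lowest −log10 p-value was 9.02 and 9.10 at 6 h and 9.02 and 9.00 at 0 h in the deposited lists. The H3K27ac list has positions only. The series has pooled input samples, but the control used in peak calling and the read depth are not stated in what was used here.

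Peaks of the main chromosomes were merged at 1 bp of overlap with Python 3.11.15, pandas 2.3.3 and scipy 1.17.1, and the merging was tested on simulated data. Gene spans came from RefSeq GRCm38.p6 for 21887 protein-coding genes. Libraries were compared with exact permutation tests. Percentiles are shares of a library's own list at or below a value. The genes, lists and tests were chosen with earlier results of these data known. Named were all 7 genes with the loci called in both libraries of a time, and up to 4 other pathway genes per class with the nearest loci. Alternatives were other windows, merging, thresholds, list lengths, and leaving out each library.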

Additional observations from a re-analysis of the deposited data

How the results depend on the processing

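The difference in peaks in the 7 windows kept its direction under each alternative, from 7.5 with lists of equal length to 20.5, and with each library left out it ran from 10 to 31. Without Fdx1, an alternative chosen after seeing the data, it was 10.5 (exact permutation p = 0.667). Over the 18584 loci, the difference in calls between replicates 1 and 2 at 6 h hardly followed that at 0 h (r = 0.0363, across loci). A locus called by 1 library, as 6108 were, has no such difference at the other time. This lowers r, so it cannot show whether same-numbered libraries were paired. For the peaks in the 7 windows, the replicate block gave the same 20.5 with a smallest possible exact p of 0.5. With each library left out, loci only at 6 h ranged from 13 to 32, only at 0 h from 3 to 6, in all libraries from 9 to 13 and in other sets from 14 to 29. Genes with a locus ranged from 5 to 6 (only 6 h), 2 to 3 (only 0 h) and 6 to 6 (all), and the acetylated share from 74.6% to 84.1%. With a library left out, these classes ask for fewer calls or fewer missing peaks. Their counts of loci and genes could therefore hardly fall, and the ranges do not test how stable the classes are. Loci in all 4 libraries numbered 5 with 10 kb windows and 15 with 100 kb. Loci only at 6 h numbered 7 with lists of equal length and 7 with the stronger 50% of each list. That last setting also gave 1 locus only at 0 h near 1 gene, 3 in all 4 libraries near 3 genes and 13 in other sets. Counting only loci nearest to the gene itself gave 1 locus only at 0 h near 1 gene and 5 in all 4 libraries. Without Fdx1, loci in other sets numbered 20. Beyond the looser classes with a library left out, the cause of these changes was not tested. The share of Star under peaks fell to no cover with lists of equal length or a −log10 p-value of 15 or more. Percentiles replaced fold enrichments only beside the values in the report, being on another scale. Unknown read depth limits each statement on a missing peak.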
